A study of Mus musculus with 2 samples.

Results

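The RNA of 32 receptor chain genes for haematopoietic and related cytokines was examined in mouse bone marrow cells sorted as Lin-c-kit+Sca1+, a fraction rich in stem cells and multipotent progenitors. Members were the probe sets whose only gene symbol in the platform annotation is one of the 32 names. There were 44 such probe sets among 12422, and they covered 28 of the 32 genes, out of 8251 genes named on the array. No probe set carried the name of Il2rg, Il1rl1, Il11ra1 or Prlr alone, and these genes were not analysed here. The study consists of 2 samples of this one fraction, called sample 1 and sample 2 from their titles, with 1 array each. The labels name no treatment, genotype, strain or age, and give no animal or sort for either sample. The spread between them may therefore be technical, and no gene was tested.

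Cytokine receptors pass a signal when their ligand brings 2 or more chains together. In most receptors of this kind one chain binds a single cytokine, while a second chain, shared among several cytokines, carries the signal to Janus kinases (JAKs) and from there to STAT transcription factors. The receptor chains a progenitor makes set which growth factors it can answer, and many lineage programs are supported through them. Csf1r is a tyrosine kinase in its own right, and the tumour necrosis factor (TNF) and interleukin-1 receptors work through separate adaptor proteins.

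A gene was called detected when a probe set of it exceeded, in both samples, a control level, the 90th percentile of 15 probe sets for bacterial genes. That level was 12.1 in sample 1 and 8.91 in sample 2, in units of quantile-normalized signal, a relative measure of RNA. Folds were taken after signals under 20 had been set to 20, and a fold against such a signal is written "at least". The 6 measured stem and progenitor markers were all detected, beside 57.0% of all 8251 genes. This call does not by itself check the cell type label, since most markers of several other cell types passed it too. Kit, on which the cells were sorted, had 25.8 and 19.4, and Ly6a was not analysed here. None of 6 T cell markers was detected, against 3 of 4 B cell markers, 10 of 11 granulocyte and monocyte markers, 3 of 3 erythroid markers, 2 of 6 mast cell, basophil and eosinophil markers, and 5 of 6 stromal and endothelial markers. Of 51 measured genes of other organs 13 were detected, or 25.5%. A call at this level thus does not by itself set blood genes apart. Some organ genes were far over it, such as Gh with 104 and 58.6 and Lhb with 44.8 and 79.7. Others were under 20 in both samples, such as Sftpb with 12.4 and 11.7. The ratio of 3' to 5' probe set signal was 10.4 and 22.2 for beta-actin and 11.2 and 19.0 for Gapdh in samples 1 and 2, so this measure of RNA quality also differed between them. Its part in the differences below was not tested. In a sorted population like this one, fewer cells that make an RNA and less of it per cell cannot be told apart.

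Of the 28 genes 10 were detected in both samples, or 35.7%, beside 57.0% of all 8251 genes. They were 3 of 5 shared chains (Csf2rb2, Il6st and Il10rb) and 7 of 13 myeloid and inflammatory chains (Csf1r, Csf3r, Il6ra, Il1r2, Il17ra, Tnfrsf1a and Tnfrsf1b). The shares of both groups lie near that of all genes. The count was 0 of 6 for lymphoid chains, 0 of 1 for the erythroid chain and 0 of 3 for non-blood chains. By protein family, both TNF receptors were detected, as were 4 of 18 class I cytokine receptors, 1 of 2 class II receptors and 1 of 3 measured interleukin-1 receptor family genes. The calls depended on the sample. In sample 1 alone 13 of the 28 genes were above its level, beside 64.3% of all genes, and in sample 2 alone 19, beside 71.0%. The calls of 2 genes, Il4ra and Il2rb, were made in sample 1 only, and those of 8 genes in sample 2 only: Csf2ra, Il3ra, Il1r1, Il12rb1, Il18r1, Epor, Ghr and Lepr. Lifr was above in each sample by a different probe set, and the remaining 7 genes were above in neither. A stricter level was set at the same percentile of probe sets for the organ genes, 30.8 and 20.3 in samples 1 and 2. By it 6 genes were detected, beside 33.3% of all genes. These were Il10rb, Csf1r, Csf3r, Il6ra, Tnfrsf1a and Tnfrsf1b.

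**Figure D1:**
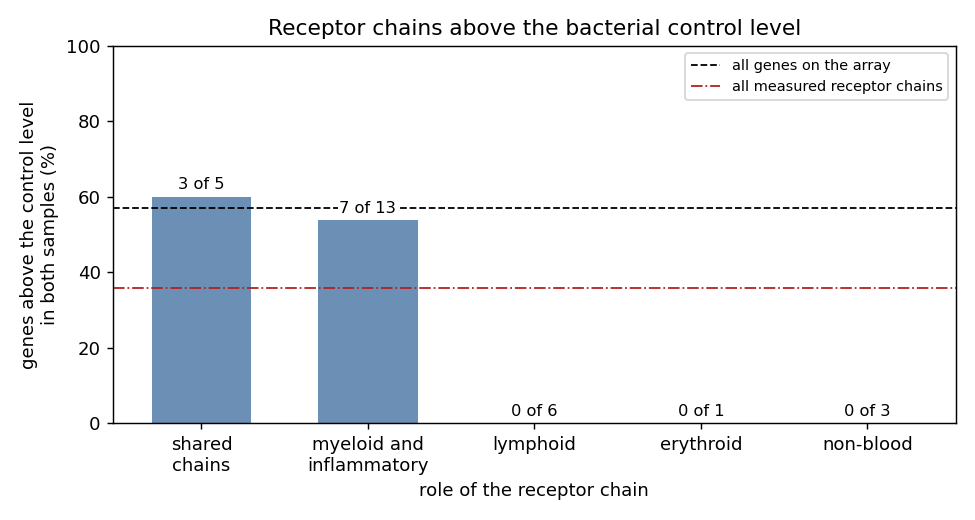
Share of measured receptor chain genes detected over the bacterial controls in both samples (vertical axis, %), by role (horizontal axis), with counts over the bars. The dashed line is the share of all 8251 genes, 57.0%, and the dash-dotted line that of the 28 receptor chains, 35.7%. The shared and myeloid bars lie near the dashed line and the other groups are at 0.

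Promoter sequence was compared because several families of transcription factors in blood cells have well-known binding motifs. RefSeq start sites of build GRCm38.p6 gave the 250 bases before the start for 21 of the 28 genes, 7 of them detected and 14 not. Both strands were searched for 4 motifs. The ETS factors, PU.1 among them, were represented by the letters AGGAAG. For the GATA factors of erythroid and other cells the letters were AGATAA. The RUNX factors of blood stem cells were represented by TGTGGT. For the STAT factors, which act behind those of the receptors that signal through Janus kinases, the letters were TTCNNNGAA. A gene with several start sites was counted once if any window held the motif. The ETS letters were found in 5 of the 7 detected genes and 7 of the 14 others, beside 32.3% of 27025 genes. The STAT letters were found in 4 of 7 (Csf2rb2, Il1r2, Tnfrsf1a and Tnfrsf1b) and 2 of 14 (Il12rb2 and Il18r1), beside 8.13% of all genes. The GATA letters were found in 1 of 7 and 3 of 14, beside 11.4%, and the RUNX letters in 0 of 7 and 2 of 14, beside 15.9%. These counts are too small to rank and no test was made of them. A match is not a binding site. The median GC content of the windows was 60.0% for detected genes, 55.6% for the others and 52.4% over all windows. The windows below are printed 5' to 3' on the gene's strand, with matches in capitals. Csf2rb2, Tnfrsf1a and Tnfrsf1b are shown as detected chains that hold the STAT letters, and Epor as the erythroid chain that holds the GATA letters.
Csf2rb2, chr15:78305722-78305971, minus strand: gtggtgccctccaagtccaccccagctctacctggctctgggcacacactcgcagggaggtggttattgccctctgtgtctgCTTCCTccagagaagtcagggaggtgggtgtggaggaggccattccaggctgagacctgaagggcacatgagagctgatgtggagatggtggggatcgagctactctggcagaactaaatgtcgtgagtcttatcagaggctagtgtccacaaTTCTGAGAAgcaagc
Tnfrsf1a, chr6:125349473-125349722, plus strand: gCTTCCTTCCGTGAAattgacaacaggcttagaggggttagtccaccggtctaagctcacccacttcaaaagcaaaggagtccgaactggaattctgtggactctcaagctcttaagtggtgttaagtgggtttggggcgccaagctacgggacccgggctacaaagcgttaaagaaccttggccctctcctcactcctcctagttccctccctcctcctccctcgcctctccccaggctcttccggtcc
Tnfrsf1b, chr4:145246871-145247120, minus strand: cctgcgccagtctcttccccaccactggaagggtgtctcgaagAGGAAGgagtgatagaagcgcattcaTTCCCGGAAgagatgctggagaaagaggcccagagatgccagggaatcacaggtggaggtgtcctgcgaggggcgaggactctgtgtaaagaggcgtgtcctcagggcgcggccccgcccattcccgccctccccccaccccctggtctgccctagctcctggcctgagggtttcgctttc
Epor, chr9:21963577-21963826, minus strand: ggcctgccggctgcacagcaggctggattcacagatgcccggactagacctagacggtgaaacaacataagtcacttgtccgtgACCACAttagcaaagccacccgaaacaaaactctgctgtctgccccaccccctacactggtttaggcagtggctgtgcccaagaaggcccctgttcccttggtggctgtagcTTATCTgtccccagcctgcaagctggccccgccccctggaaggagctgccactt
In Csf2rb2 the STAT letters begin 15 bases before the start site and the ETS letters 168 bases before it. In Tnfrsf1b they begin 181 and 207 bases before it. In Tnfrsf1a they begin 244 and 249 bases before it and overlap. The Epor window holds the GATA letters, on the opposite strand, 54 bases before the start and the RUNX letters, also on the opposite strand, 166 bases before it. Some windows did not lie wholly before the annotated gene and are not printed. Among them were that of Csf3r and those that gave the STAT letters of Il1r2, Il12rb2 and Il18r1. The Csf3r window held the ETS letters 4 times.

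Among the shared chains, the beta chains of the interleukin-3 family could be followed only in part. Mice have a pair of such chains. Csf2rb serves the receptors for interleukin-3, interleukin-5 and granulocyte-macrophage colony-stimulating factor (GM-CSF), and Csf2rb2 pairs with the interleukin-3 receptor alone. The genes are next to each other on chromosome 15, with no protein-coding gene between them. Csf2rb2 gave 28.1 in sample 1 and 26.1 in sample 2, a mean log2 signal of 4.76 ± 0.08 (SD, n = 2). A second probe set gave 3.75 and 8.80 and did not pass. Csf2rb had 8.60 and 4.80, under the control level of each sample. A further probe set that names both genes, and so entered neither, had 67.8 and 30.1. It was made from the same source sequence as the Csf2rb probe set, so whether the family's beta chain RNA was measured depends on which of these probe sets is read.

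Il6st encodes gp130, the signalling chain shared by interleukin-6, interleukin-11 and leukaemia inhibitory factor. Its signals were 17.9 and 19.5, and 15.3 and 9.90 by another probe set. Both probe sets passed the control level in each sample but lay below the floor of 20, so no fold is given. Il10rb, the chain that interleukin-10 shares with interleukin-22 and the lambda interferons, gave 205 and 125, a mean log2 signal of 7.32 ± 0.51 (SD, n = 2). It was 1.64-fold higher in sample 1, a difference larger than that of 63.8% of the 3338 genes detected with both signals at or over the floor. Il4ra, shared by interleukin-4 and interleukin-13, had 25.1 and 5.50, and 11.1 and 3.35 by another probe set. Only sample 1 exceeded its control level, by the first of these, and there the gene was at least 1.25-fold higher than in sample 2.

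Among the growth factor receptors of granulocytes and macrophages, Csf1r and Csf3r were detected in both samples, and the chains for GM-CSF, interleukin-3 and interleukin-5, Csf2ra, Il3ra and Il5ra, were not. Csf1r, the receptor of macrophage colony-stimulating factor, gave 108 in sample 1 and 39.5 in sample 2, a mean log2 signal of 6.03 ± 1.03 (SD, n = 2). That is 2.73-fold higher in sample 1, a larger difference than that of 90.8% of the 3338 genes. Its other probe set had 34.8 and 37.4, both above the control level, and differed little. Over both probe sets the log2 difference fell from -1.45 to -0.67. Csf1r was the only one of the 10 genes 2-fold or more higher in sample 1, beside 11.0% of the 4707 detected genes. Granulocyte and monocyte markers also differed: 6 of the 10 detected were higher in sample 1, 3 were higher in sample 2 and 1 was under the floor in both. The summed signal of the 11 markers was 3351 in sample 1 and 1843 in sample 2. Mpo, the myeloperoxidase of early granules, had 1862 and 288, so the gap between the sums rests on Mpo alone. The monocyte gene Cd14 had 152 and 65.9, and Itgam was close to 0 with 3.65 and 1.50. Their part in the Csf1r difference was not tested.

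Csf3r, the receptor of granulocyte colony-stimulating factor, gave 56.6 and 49.2, which are 1.15-fold apart, with a mean log2 signal of 5.72 ± 0.14 (SD, n = 2). A further probe set had 46.3 and 26.6. Another one made from the same source sequence had 4.20 and 12.7 and passed the control level only in sample 2. Csf2ra, the GM-CSF binding chain, had 6.60 and 22.1 and was above the control level only in sample 2. Il3ra, the interleukin-3 binding chain, had 4.20 and 32.4, at least 1.62-fold higher in sample 2 and above the level only there. Il5ra, the eosinophil chain for interleukin-5, had 1.30 and 0.70. These alpha chains thus had no signal above the control level in sample 1.

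Of the receptors for inflammatory cytokines, Il6ra, Tnfrsf1a, Tnfrsf1b, Il17ra and Il1r2 were detected in both samples. Il6ra, the binding chain for interleukin-6, gave 44.1 and 61.3, 1.39-fold apart, with a mean log2 signal of 5.70 ± 0.34 (SD, n = 2). Tnfrsf1a, the TNF receptor with a death domain, gave 62.8 and 83.5, with a mean log2 signal of 6.18 ± 0.29 (SD, n = 2). The order was the opposite by its other probe set, at 44.2 and 37.3. Tnfrsf1b, the second TNF receptor, gave 46.1 and 58.2, 1.26-fold apart, with a mean log2 signal of 5.69 ± 0.24 (SD, n = 2). Differences of this size were common, since those of Il6ra, Tnfrsf1a and Tnfrsf1b were larger than those of 46.8%, 41.1% and 34.6% of the 3338 genes.

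Il17ra, the chain used by most interleukin-17 cytokines, gave 25.4 and 48.2, with a mean log2 signal of 5.13 ± 0.65 (SD, n = 2). The other one gave 14.6 and 25.6, so both probe sets gave the higher signal in sample 2. The difference by the first, 1.90-fold, was larger than that of 74.4% of the 3338 genes. Il1r2, the decoy receptor that binds interleukin-1 without signalling, had 7.20 and 60.5, at least 3.03-fold higher in sample 2. That probe set was not above the control level in sample 1. The gene counted as detected by the other probe set, with 12.6 and 17.2, both under the floor. Il1r2 was the only one of the 10 genes 2-fold or more higher in sample 2, beside 9.62% of the 4707 genes, and with the mean over its probe sets the log2 difference was 0.80 in place of 1.60. The neutrophil markers Camp (91.9 and 269), Ngp (60.0 and 275) and S100a8 (301 and 459) were also higher in sample 2. They were the only 3 of the 10 detected granulocyte and monocyte markers that were, and 6 were higher in sample 1. The part of these markers was not tested.

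The other inflammatory chains were not detected. Il1r1, the signalling interleukin-1 receptor, had 11.7 and 10.2, just under the level in sample 1 and just over it in sample 2. Il1r2 and Il1r1 are next to each other on chromosome 1, in a cluster that goes on with Il1rl1 and Il18r1. Il10ra, the interleukin-10 binding chain, had 2.25 and 4.10, and Il13ra1, the interleukin-13 chain that pairs with Il4ra, had 1.40 and 8.25. Neither exceeded the control level in either sample.

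**Figure D2:**
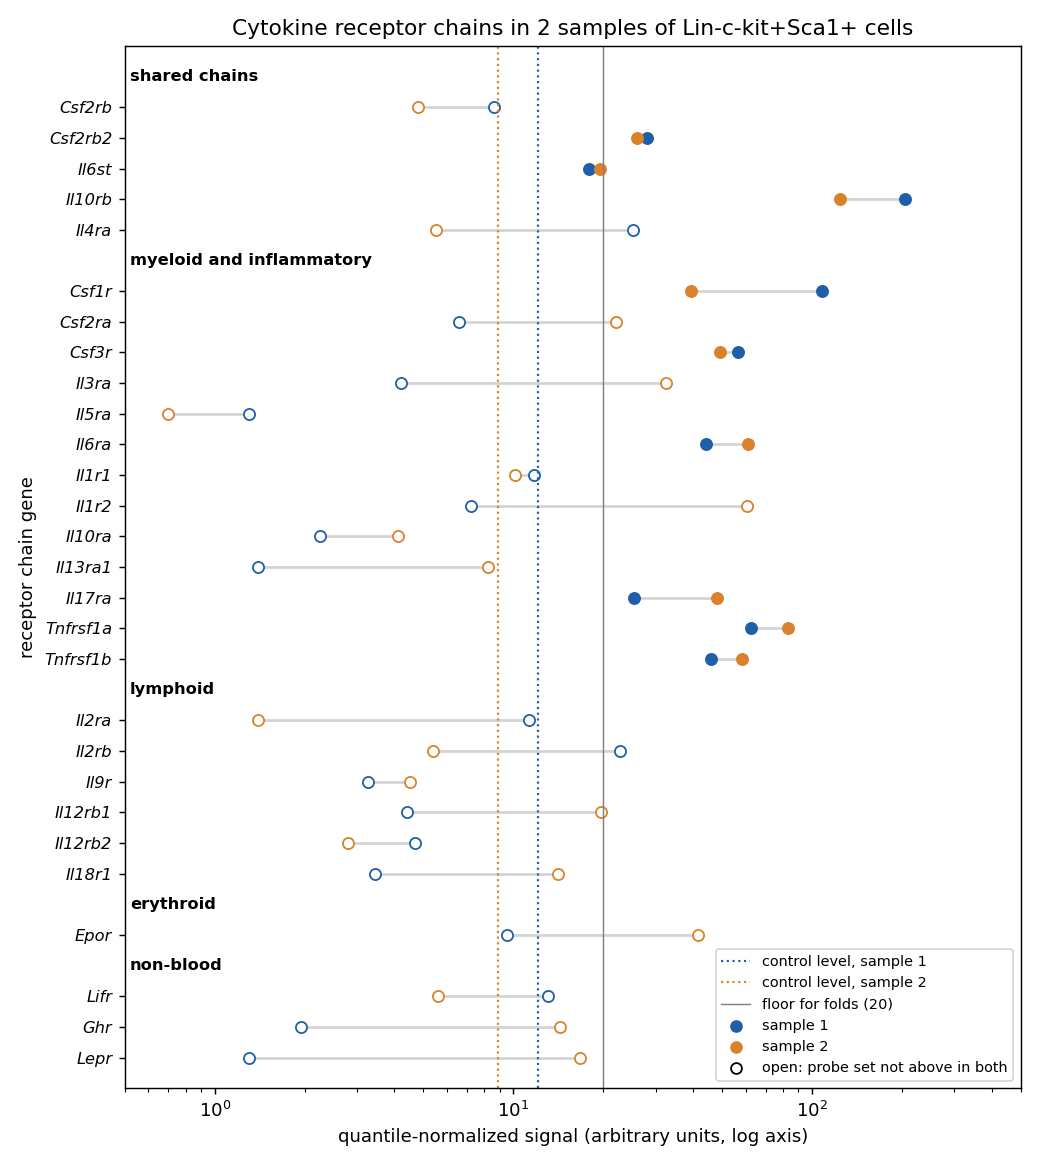
Quantile-normalized signal (horizontal log axis, arbitrary units) of the 28 receptor chain genes (vertical axis, by role) in sample 1 and sample 2, by the probe set used for each gene. Open points mark probe sets not above the dotted control levels in both samples. Il1r2 is open at 7.20 and 60.5 because its call came from its other probe set, and the lymphoid, erythroid and non-blood genes are all open.

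None of the 6 lymphoid receptor chains was detected. Il2ra, the interleukin-2 alpha chain of activated and regulatory T cells, had 11.3 and 1.40. Il2rb, the chain for interleukin-2 and interleukin-15, had 22.8 and 5.40 and exceeded the level only in sample 1. Il12rb1, the chain shared by interleukin-12 and interleukin-23, had 4.40 and 19.6, and 4.00 and 2.65 by another probe set. Its partner Il12rb2 had 4.70 and 2.80. Il18r1, the interleukin-18 binding chain, had 3.45 and 14.2, and Il9r, the interleukin-9 chain, had 3.25 and 4.50. The 6 T cell markers had signals from 0.60 to 12.0 and none was detected, while 3 of 4 B cell markers were.

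Epor, the erythropoietin receptor, had 9.55 in sample 1, under its control level of 12.1, and 41.5 in sample 2. It was at least 2.08-fold higher in sample 2, but with only 1 sample above the control level it did not enter the counts of 2-fold differences. Erythroid markers did not share a direction. Klf1, an erythroid transcription factor, had 215 and 80.5, the carbonic anhydrase gene Car1 had 488 and 75.9, and the alpha globin gene Hba-a1 had 30.1 and 670. Their summed signal was 733 and 827, and their part in the Epor difference was not tested.

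None of the measured receptors with their main role outside the blood was detected, and all their signals were under the floor. Ghr, the growth hormone receptor, had 1.95 and 14.4, and 3.25 and 10.1 by another probe set. Lepr, the leptin receptor, had 1.30 and 16.7, and 3.10 and 4.30. The 5 probe sets of Lifr, the leukaemia inhibitory factor receptor, had signals from 1.30 to 13.1 with no common direction. Ghr and Lepr were above the control level in sample 2 only, and Lifr was above in each sample by a different probe set. In sample 2 the highest signal of each gene lay between those of the Il6st probe sets, 9.90 and 19.5, which passed.

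Of 12 genes with several probe sets, 4 had every probe set pass in both samples (Csf1r, Il6st, Il17ra and Tnfrsf1a), 5 had none, and 3 had some (Csf2rb2, Csf3r and Il1r2). With every probe set required, 7 of the 28 genes were detected, beside 44.9% of all genes.

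**Figure D3:**
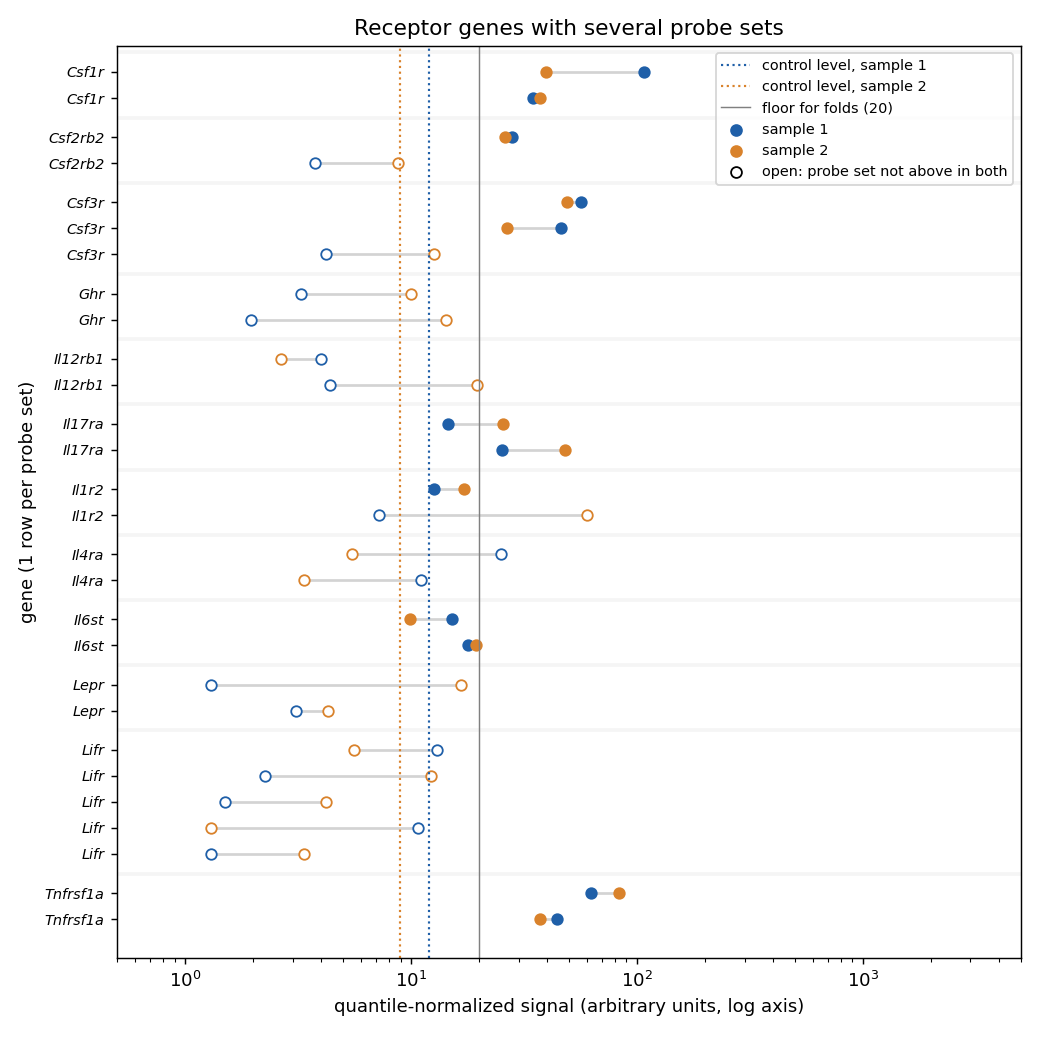
Quantile-normalized signal (horizontal log axis, arbitrary units) of each probe set of the 12 receptor genes that have several (vertical axis, 1 row per probe set), in both samples. Filled points mark probe sets above the dotted control levels in both samples. The probe sets of Csf1r show 108 and 39.5 against 34.8 and 37.4, and those of Tnfrsf1a differ in order.

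Chains were also counted by the receptors they form. The list held only receptors built from different chains. Detected genes such as Csf1r, Csf3r, Tnfrsf1a and Tnfrsf1b, and undetected ones such as Epor, Ghr and Lepr, were thus outside it. Of 17 listed complexes 11 had every chain on the array. In 1 of these 11, the interleukin-6 receptor of Il6ra and Il6st, every chain was detected, with Il6st under the floor in both samples. In 4 complexes 1 chain was detected: Csf2rb2 of the interleukin-3 receptor, Il6st of the LIF receptor, Il10rb of the interleukin-10 receptor and Il18rap of the interleukin-18 receptor. Il18rap, the accessory chain for interleukin-18, had 13.9 and 10.4, and Il1rap, the accessory chain for interleukin-1, had 1.50 and 5.95. No chain was detected in 6 complexes, among them the GM-CSF and interleukin-5 receptors, which rest on Csf2rb and so on the probe set question described above. In sample 2 alone 4 complexes had every chain over the level and in sample 1 alone 2. With the organ level the count was 0. The interleukin-3 receptor entered the list once with each beta chain. All these counts follow from the calls of single genes. No matching share over all genes was computed for complexes, so they are not a result beyond those calls.

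Between the samples the 10 genes showed no common direction. Of these 4 were higher in sample 1, 5 were higher in sample 2 and 1, Il6st, was under the floor in both, and these counts were the same with the deposited and the median-centred scaling. The median log2 difference, sample 2 minus sample 1, was 0.17, beside 0 for all 4707 detected genes. The replicate SD over those genes was 0.59 on the log2 scale.

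Of 34 genes that pass on the receptors' signal, damp it or answer to it 26 were detected, or 76.5%, beside the 57.0% of all genes. All 8 genes of the SOCS and feedback group were detected, 3 of 4 Janus kinases, 4 of 5 STAT genes and 3 of 3 target genes. Of the adaptors and kinases 4 of 8 were, and of the adaptors of interleukin-1 and TNF receptors 4 of 6. Some calls were weak. Socs1 passed in sample 1 at 12.1 against a level of 12.06, and Stat6, Sos1 and Myc were under the floor in both samples. Jak2, Socs3, Pias3, Shc1, Pik3cd, Bcl2l1 and Traf6 passed by only some of their probe sets. The organ level and the rule of every probe set were not applied to this list. Of the 26 genes 5 were 2-fold or more higher in sample 2 and 0 in sample 1, beside 9.62% and 11.0% of the 4707 detected genes. With the scaling as deposited the counts were 4 and 0, beside 8.22% and 12.6%. With median-centring they were 6 and 0, beside 10.2% and 10.2%.

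Jak1 had 33.1 and 51.6, and Jak2, the kinase of Epor and the interleukin-3 family, had 25.3 and 41.1, with 0.75 and 1.95 by another probe set. Jak3, the partner of the common gamma chain, had 45.8 and 114, 2.50-fold higher in sample 2. Tyk2 had 8.90 and 10.7 and was not above the control level in sample 1. The 3 detected Janus kinases were thus all higher in sample 2. Stat3, which acts behind gp130, had 110 and 144, and Stat5a, which acts behind Epor and the beta chains, had 106 and 144. Their other probe sets had 30.3 and 46.7 for Stat3 and 62.9 and 158 for Stat5a, in the same direction. Stat4 had 19.9 and 29.0, Stat6 16.6 and 16.9, and Stat5b 20.4 and 3.35.

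The SOCS genes, which are induced by cytokine signals and damp them, went in part the same way. Socs3 had 12.9 and 162, at least 8.12-fold higher in sample 2, but its other probe set had 2.90 and 6.60 and was not above the control level. Socs2 had 50.4 and 96.3 and Socs1 12.1 and 21.1. Cish, a STAT5 target of the same family, had 52.5 and 46.5, in the opposite order. Of the other genes, the phosphatase gene Inpp5d (SHIP) had 24.9 and 112, with 27.5 and 39.3 by another probe set. The interleukin-1 receptor kinase gene Irak1 had 41.3 and 89.3, and Pias1, a STAT inhibitor, had 29.0 and 58.7. The Socs3 and Inpp5d differences were therefore much larger by one of their probe sets than by the other.

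**Figure D4:**
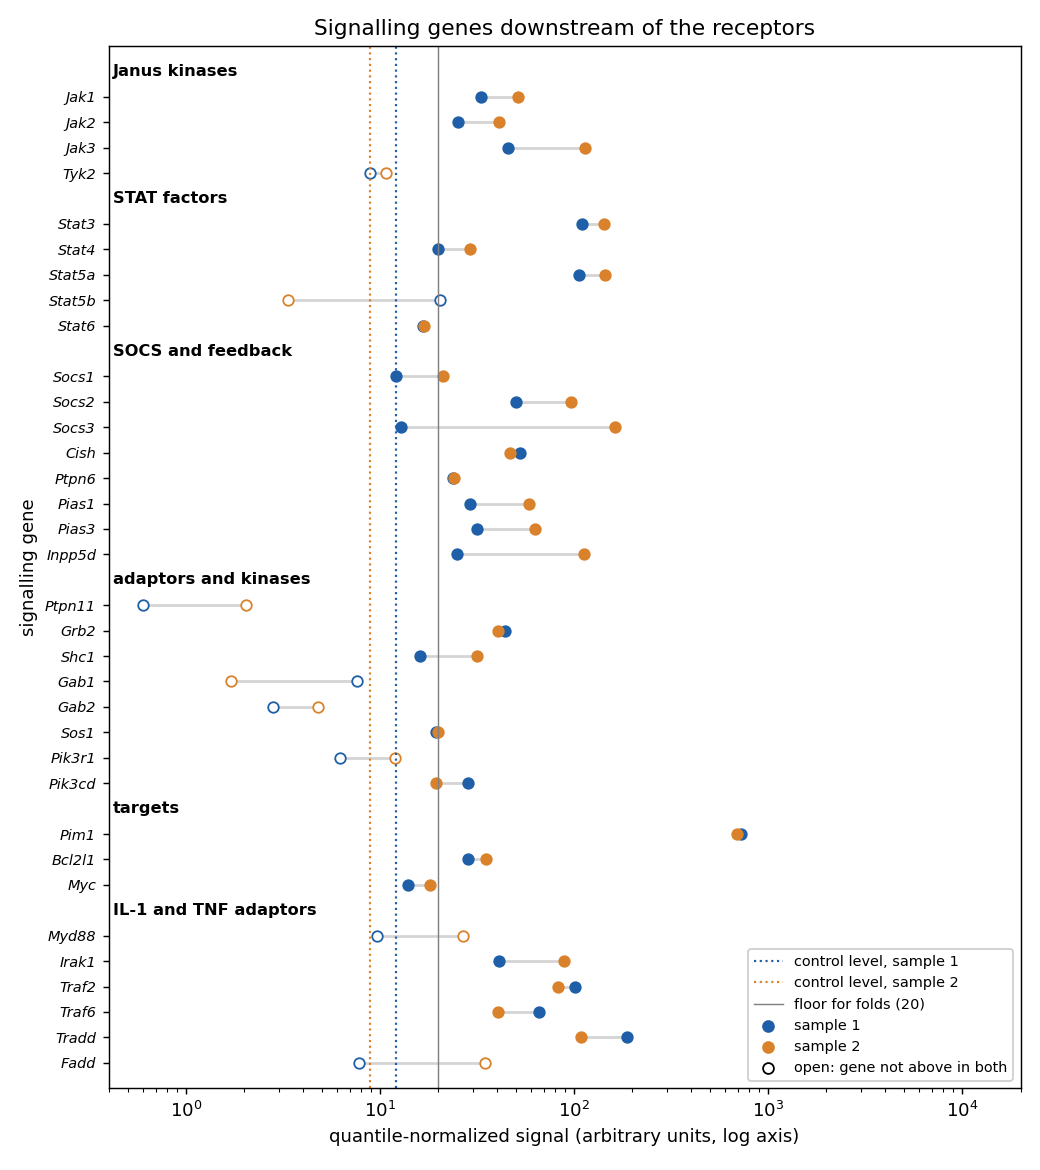
Quantile-normalized signal (horizontal log axis, arbitrary units) of 34 signalling genes (vertical axis, by group) in sample 1 and sample 2, by the probe set used for each gene. Open points mark genes not above the dotted control levels in both samples. The widest gap among the filled points is that of Socs3, at 12.9 and 162.

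Receptors outside the list gave a mixed picture. Of 11 measured, 6 were detected, or 54.5%, near the 57.0% of all genes. Flt3, the receptor kinase of early lymphoid and myeloid progenitors, had 137 and 322, and 60.8 and 100 by another probe set. Il7r, the interleukin-7 receptor of lymphoid progenitors, had 6.60 and 35.9 and was above the level only in sample 2. The interferon receptor gene Ifnar2 had 29.3 and 159, though its other probe set had 17.5 and 4.10, and Ifngr1 had 45.4 and 18.1.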

How the data were processed

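RNA of 2 samples of sorted cells went through 2 rounds of amplification before hybridisation, per the labels. The deposited values are signal intensity on a linear scale, 1 per probe set, and the equal column means (53.944) show a common scaling. The summarising software and detection calls are not given in the sources used here. Amplification of this kind favours the 3' end of transcripts, so probe sets far from it can read low. Arrays have no read depth, and their number, here 2, limits the precision.

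Both arrays were quantile-normalized with Python 3.11.15 (numpy 2.4.6, pandas 2.3.3), and signals under 20, 57.7% of the values in each sample, were set to 20 before log2. The 66 control probe sets entered no count. Gene names came from the platform table: of 12422 probe sets 10833 named 1 gene, 396 several and 1193 none. All 28 member genes matched the gene table of GRCm38.p6 by gene ID. Where a gene had several probe sets, the one strongest on average (log2 scale) gave its value, and any could make the call of detection. With 1 group there was no test and no p-value, so every comparison describes these 2 arrays. The normalization and folds were tested on simulated data, with shifts only in probe sets well over the floor. The simulated noise was smaller than the spread between these samples. Weak signals and the call of detection were not covered.

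The members, lists and complexes were chosen with earlier results of these data known. The genes named are all members, the JAK, STAT and SOCS genes, chosen partner chains and receptors, the 5 other genes with the largest differences, and markers named after their values were seen. Alternatives were the deposited and median-centred scaling, other control levels, every probe set, each sample alone, no floor, an offset of 32, the mean over probe sets and no filter.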

Additional observations from a re-analysis of the deposited data

Results flagged for a closer look

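The probe set that names both Csf2rb2 and Csf2rb, the beta chain genes of the interleukin-3 family, carried a signal outside the gene counts. It had 67.8 in sample 1 and 30.1 in sample 2, above the control levels of 12.1 and 8.91, while the probe set of Csf2rb alone was under them. It was 2.25-fold higher in sample 1. Groups of 2 samples are too small for a check of single outlying samples.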

How the results depend on the processing

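Of the 28 receptor genes, 10 were detected in both samples, and 1 of 11 complexes had every chain detected. Both counts were the same with the deposited and the median-centred scaling. With the median bacterial probe set as the level they were 24 and 7, beside 85.4% of all genes. With the organ genes' level they were 6 and 0, and with the highest bacterial probe set 9 and 1, beside 53.0% of all genes. Leaving out 1 sample gave 13 to 19 genes and 2 to 4 complexes, the higher figures in sample 2 alone. Csf1r, the 1 gene 2-fold or more higher in sample 1, was no longer so with an offset of 32 (0 genes) or the mean over probe sets (0). The share of detected genes that much higher in sample 1 also fell under these settings, from 11.0% to 4.50% and 8.43%. Il1r2, the 1 gene higher in sample 2, was no longer so with the mean over probe sets (0), beside 7.14% of detected genes. Counting undetected genes too, Epor made it 2, beside 6.44% of all genes. The median difference of 0.17 ran from 0 with no filter and 0.042 with the mean over probe sets to 0.23 without a floor. Of 140 log2 differences of single genes under the other settings, 18 moved by more than the replicate SD of detected genes, 0.59, 16 of them without a floor, and 0 of those 2-fold or more apart changed sign. Differences could not be computed without either sample. No paired analysis was possible because there is only 1 group. Signals near the bacterial level limit what can be said of the weak chains.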
